A study of Mus musculus with 8 samples.

Results

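The organic anion transporting polypeptides of the Slco family and the ATP-binding cassette (ABC) efflux pumps carry drugs, hormones, conjugated metabolites and urate across the membranes of kidney cells. Expression of 9 such genes, Slco1a6, Slco2a1, Slco3a1, Slco4c1, Abcc2, Abcc4, Abcg2, Abcb1a and Abcb1b, was examined in the kidney cortex of mice fed high phosphate (Pi). They were chosen by gene symbol and all 9 were found among the 17457 genes listed. The tested diet held 1.2% Pi and was given to 4 C57BL/6J mice, and the normal diet held 0.6% Pi and was given to 4 C57BL/6J mice. All animals were wild type, the cortex was taken on day 3, and each library came from whole tissue of 1 mouse; the study's methods describe its mice as adult, age-matched males. The comparison asks which kidney transcripts respond to dietary Pi, and here what it does to the transporters of drugs and organic anions.

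Slco proteins bring large organic anions such as steroid conjugates, thyroid hormones and prostaglandins into cells without using ATP. ABC pumps of the B, C and G subfamilies hydrolyse ATP to push substrates out. In the proximal tubule the uptake carriers of the blood side and the pumps of the brush border act in series, which is how many drugs reach the urine.

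The libraries held an estimated 12000000 to 12700000 fragments on high Pi and 11600000 to 12600000 on normal Pi, and values are FPKM (fragments counted for a gene, scaled to its transcript length and to the library's total). The segment markers of kidney cortex were present in every library, with the sodium-glucose cotransporter Slc5a2 at 182 to 246 FPKM on high Pi and 275 to 312 FPKM on normal Pi. The library of high Pi replicate 1 was the least like the others. It lay 0.299 log2 units (root mean square over genes) from the mean of the other libraries of its diet, against 0.138 to 0.212 for the other 7. It held the highest value of all 8 libraries in 4126 of the 12383 genes tested and the lowest in 1363. Among the 9 transporters it held the highest value in 5 (Slco2a1, Abcc2, Abcc4, Abcg2 and Abcb1a) and the lowest in 1 (Slco3a1). High Pi replicate 3 came next, with the lowest value in 3250 genes and the highest in 1527. It held the lowest value of Slco1a6, Abcc4 and Abcg2. The transporter differences that high Pi replicate 1 moved are given with and without that library.

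In brief, Slco1a6 was lower in every high Pi cortex than in any normal Pi cortex, by 17.6% of the normal Pi mean, and Slco2a1 was higher in every high Pi cortex, by 12.0%. Abcc2 averaged 32.5% higher on high Pi with overlapping values. None of these passed the test across all genes. Each diet difference is the high Pi mean of log2(FPKM + 1) less the normal Pi mean, tested by limma-trend over the 12383 genes that reached 0.5 FPKM in at least 4 libraries. P-values were adjusted over all of them (Benjamini-Hochberg) and the threshold was 0.05. All 9 transporters passed that filter on low values. Of the 9, 0 were called, where 0.299% of all genes tested were (37 genes, with 0.178% higher and 0.121% lower). At an unadjusted p under 0.05 there were 2 of the 9, Slco1a6 and Abcc2, where 9.35% of all genes were. The diets did not overlap for 2 of the 9, Slco1a6 and Slco2a1, where this held for 5.02% of all genes. The median log2 difference of the 9 was 0.13, with 6 of 9 above 0. Over all genes tested the median was -0.01, with 5656 of 12383 above 0. Without high Pi replicate 1 the median of the 9 was -0.03, with 3 of 9 above 0. The median over all genes in that fit was -0.04, with 4769 of 12295 above 0.

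**Figure D1:**
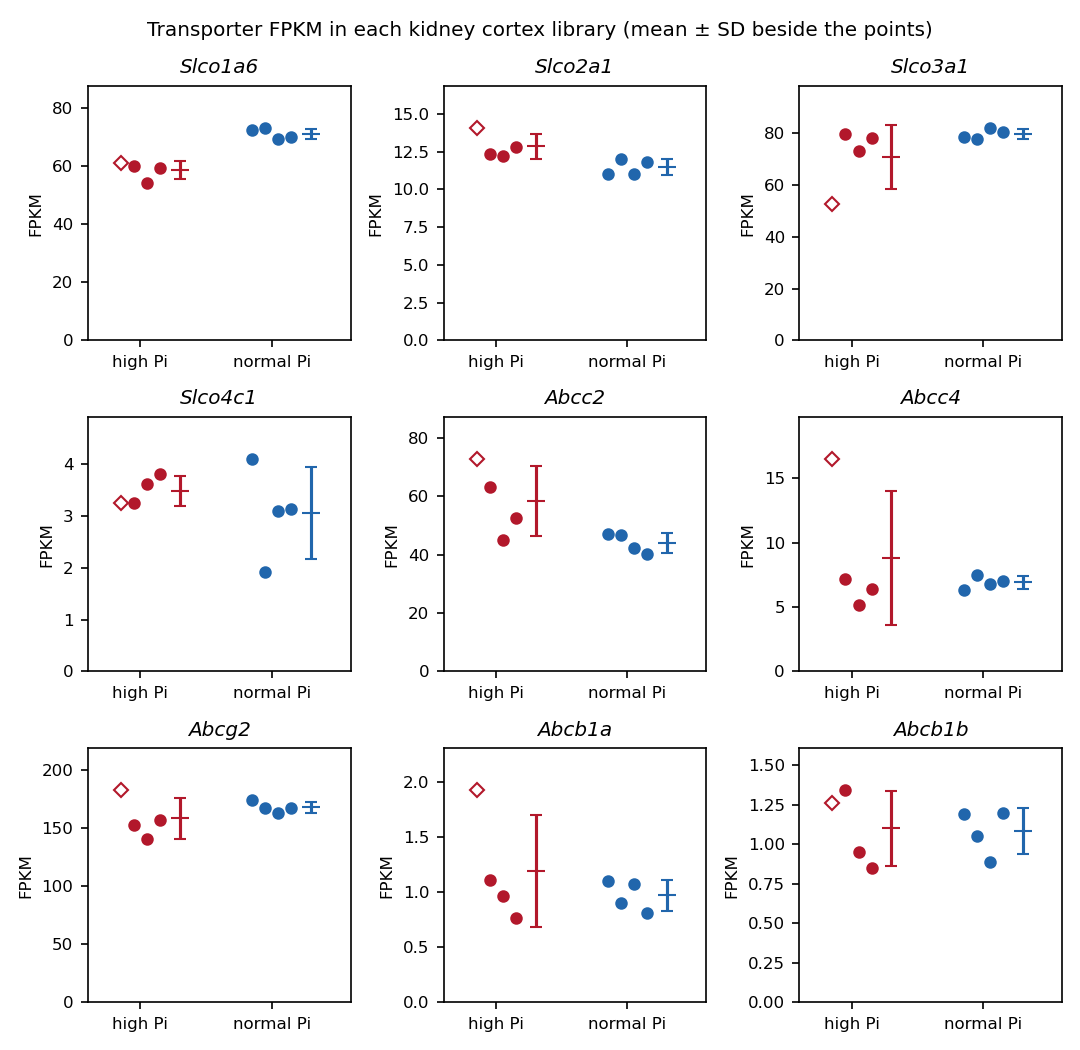
FPKM of the 9 transporter genes in each kidney cortex library, 1 panel per gene with the y axis starting at 0. Points are single mice in the order of their replicate numbers (open diamond, high Pi replicate 1) and the bar beside them is the mean ± SD of the 4 libraries of that diet. The 4 high Pi values of Slco1a6 (54.3 to 61.1) sit below all 4 normal Pi values (69.4 to 73.0), and for Abcc4 the open diamond at 16.5 sits above every other library.

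The transporters differed more from each other than between diets. Abcg2 was the most abundant of the 9, at 158 ± 17.5 FPKM on high Pi and 168 ± 4.75 FPKM on normal Pi (SD, n = 4 each). Slco3a1, Slco1a6 and Abcc2 followed at means of 44.0 to 79.6 FPKM, then Slco2a1, Abcc4 and Slco4c1, with Abcb1a and Abcb1b last at about 1 FPKM. On high Pi, neighbours in this order overlapped for Slco3a1 and Slco1a6, for Slco1a6 and Abcc2, for Slco2a1 and Abcc4, and for the Abcb1 pair. On normal Pi the Abcb1 pair alone overlapped.

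Of the uptake carriers, Slco1a6 is a rodent member of the Oatp1a subfamily that is expressed mainly in kidney. Its gene lies on the minus strand at chr6:142085761-142186177 (GRCm38.p6). Slco1a6 had 61.1, 60.0, 54.3 and 59.3 FPKM in high Pi replicates 1 to 4, against 72.3, 73.0, 69.4 and 70.2 FPKM in normal Pi replicates 1 to 4. All high Pi libraries were below all normal Pi libraries, which held for 2.62% of the genes tested. The means were 58.7 ± 2.99 FPKM on high Pi and 71.2 ± 1.72 FPKM on normal Pi (SD, n = 4 each). The log2 difference was -0.28 (SE 0.0602), a fold of FPKM + 1 of 0.754 to 0.904 (95% interval), with a limma-trend adjusted p of 0.102 and an unadjusted p of 0.00063. The exact two-sided permutation test over the 70 assignments of the 8 libraries gave p = 0.0286, the smallest it can give. Left out of the fit, high Pi replicate 1 changed the call: Slco1a6 then fell by 0.30 on the log2 scale (adjusted p = 0.0216, limma-trend), as 1 of the 9 transporters called, where 3.44% of all genes were called and 2.17% were called lower. In 12 of the 15 alternative fits the adjusted p stayed above the threshold.

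The early proximal tubule markers varied beside Slco1a6. The summed FPKM of the 9 markers of the S1 and S2 segments was 4250 to 5206 on high Pi and 5272 to 6150 on normal Pi, without overlap. Most of that sum was Slc34a1, the brush-border phosphate transporter (2764 to 3163 FPKM on high Pi and 3529 to 4146 FPKM on normal Pi). Without Slc34a1, a sum chosen after seeing the data, the other 8 markers summed to 2042, 1622, 1485 and 1647 FPKM in high Pi replicates 1 to 4, against 1743, 2003, 1839 and 1900 FPKM in normal Pi replicates 1 to 4. High Pi replicate 1 was then the highest library and the other 3 high Pi libraries were below every normal Pi library. Of the 9 markers of the list 7 had a negative log2 difference, none was called and none was at 0. Slc5a2, with the smallest p of the list, averaged 205 ± 29.0 FPKM on high Pi and 287 ± 16.8 FPKM on normal Pi (SD, n = 4 each; log2 difference -0.49, adjusted p = 0.0584, limma-trend). Without high Pi replicate 1 Slc5a2 fell (adjusted p = 0.00161, limma-trend) together with 4 other markers of the list, where 2.17% of all genes were called lower. The markers of the S3 segment, the last part of the proximal tubule, went the other way. Of these 9 markers 8 had a positive log2 difference and 0 were called. Without high Pi replicate 1 all 9 were positive and 1 was called higher, where 156 of 12295 genes were called higher. An unadjusted p under 0.05 (limma-trend) was then found for 7 of the 9, against 2 with all libraries. In that fit without high Pi replicate 1, 2316 of 12295 genes had one, 767 of them higher. In whole cortex, fewer cells of a type and less RNA per cell cannot be told apart, and the part of the segment makeup in the Slco1a6 values was not tested.

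The promoter windows of Slco1a6 and Abcc2 are shown because these 2 genes had the smallest p among the 9. Each covers 250 bases before to 50 bases after the RefSeq start site in GRCm38.p6, 5′ to 3′ on the gene's own strand (Slco1a6 at chr6:142186100-142186399, minus strand, and Abcc2 at chr19:43782058-43782357, plus strand). Capitals mark a match to TGACNNNGC, the core of the antioxidant response element that the transcription factor NRF2 binds, searched on both strands.
Slco1a6: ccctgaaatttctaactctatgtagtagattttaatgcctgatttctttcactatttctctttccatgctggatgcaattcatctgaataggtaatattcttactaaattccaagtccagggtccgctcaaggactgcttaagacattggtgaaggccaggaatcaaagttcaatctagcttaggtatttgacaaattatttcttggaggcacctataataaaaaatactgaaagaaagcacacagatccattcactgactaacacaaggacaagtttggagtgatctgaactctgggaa
Abcc2: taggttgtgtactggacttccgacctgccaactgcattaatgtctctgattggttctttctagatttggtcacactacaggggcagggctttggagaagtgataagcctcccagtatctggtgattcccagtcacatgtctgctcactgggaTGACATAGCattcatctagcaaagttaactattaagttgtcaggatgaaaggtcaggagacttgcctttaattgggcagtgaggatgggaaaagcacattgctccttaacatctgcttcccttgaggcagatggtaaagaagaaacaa
The Abcc2 window held 1 match, TGACATAGC, that begins 98 bases before the start site, and the Slco1a6 window held none. Windows were found for 8 of the 9 genes, Slco3a1 being the exception. Of these 8 genes, 4 (Slco4c1, Abcc2, Abcc4 and Abcb1a) had a match in at least 1 window, in 5 of 11 windows, and 12.4% of all 32851 promoter windows held one. Such a match describes the letters of the window and no binding was measured.

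Slco2a1 is the prostaglandin transporter, which takes up prostaglandins for breakdown, and lies at chr9:103007061-103096002. Slco2a1 had 14.0, 12.3, 12.2 and 12.8 FPKM in high Pi replicates 1 to 4, against 11.1, 12.0, 11.0 and 11.8 FPKM in normal Pi replicates 1 to 4. All high Pi libraries were above all normal Pi libraries, with 12.18 FPKM as the lowest high Pi value and 12.00 FPKM as the highest normal Pi value. The means were 12.8 ± 0.844 FPKM on high Pi and 11.5 ± 0.52 FPKM on normal Pi (SD, n = 4 each), and the log2 difference was 0.15 (SE 0.0735, adjusted p = 0.571, limma-trend; 95% interval of the fold of FPKM + 1, 0.993 to 1.24). Without high Pi replicate 1 the log2 difference was 0.11 (adjusted p = 0.415, limma-trend), and the high Pi mean was 8.56% above the normal Pi mean. The exact permutation test gave p = 0.0286 with all libraries and p = 0.0571 without high Pi replicate 1 or without normal Pi replicate 1, 3 or 4, each time with no overlap. Endothelial markers, a cell type in which Slco2a1 is known to be expressed, summed to 337 to 420 FPKM on high Pi and 299 to 350 FPKM on normal Pi. Of 12 endothelial markers 11 had a positive log2 difference, 0 were called and none was at 0. An unadjusted p under 0.05 (limma-trend) was found for 3 of them, where 9.35% of all genes had one. Without high Pi replicate 1, which held the highest endothelial sum, 8 of 12 were positive and 0 had an unadjusted p under 0.05. Pecam1, the endothelial adhesion molecule with the smallest p of that list, averaged 17.3 ± 3.10 FPKM on high Pi and 13.9 ± 1.08 FPKM on normal Pi (SD, n = 4 each; log2 difference 0.28, adjusted p = 0.408, and 0.18 without high Pi replicate 1). The part of endothelial content in the Slco2a1 values was not tested.

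Slco3a1 is a broadly expressed Oatp that carries prostaglandins and thyroid hormone, at chr7:74275418-74554780. Slco3a1 had 52.7, 79.7, 73.3 and 78.2 FPKM in high Pi replicates 1 to 4, against 78.5, 77.7, 81.9 and 80.4 FPKM in normal Pi replicates 1 to 4. The first high Pi library was low and the diets overlapped. The means were 71.0 ± 12.5 FPKM on high Pi and 79.6 ± 1.93 FPKM on normal Pi (SD, n = 4 each), and the log2 difference of -0.18 (adjusted p = 0.676, limma-trend) was -0.05 (adjusted p = 0.685) without that library.

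Slco4c1 is a basolateral carrier known from human and rat for the uptake of digoxin and thyroid hormone, at chr1:96816270-96872193. Slco4c1 had 3.24, 3.25, 3.62 and 3.81 FPKM in high Pi replicates 1 to 4, against 4.09, 1.91, 3.09 and 3.14 FPKM in normal Pi replicates 1 to 4. Both the highest and the lowest value were normal Pi libraries. The log2 difference was 0.17 (SE 0.144, adjusted p = 0.792, limma-trend). The 2 extreme normal Pi libraries moved it in opposite directions. Without normal Pi replicate 1 it was 0.29 (exact p = 0.0286, no overlap), without normal Pi replicate 2 it was 0.018 (exact p = 0.943), and with all libraries the exact p was 0.486.

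Abcc2 (Mrp2) is the brush-border pump for glutathione and glucuronide conjugates, at chr19:43782308-43838332. Abcc2 had 72.6, 63.1, 44.9 and 52.7 FPKM in high Pi replicates 1 to 4, against 47.0, 46.8, 42.2 and 40.1 FPKM in normal Pi replicates 1 to 4. High Pi replicates 1, 2 and 4 were above every normal Pi library and high Pi replicate 3 lay among them. The means were 58.3 ± 12.1 FPKM on high Pi and 44.0 ± 3.43 FPKM on normal Pi (SD, n = 4 each). The log2 difference was 0.38 (SE 0.125), a fold of FPKM + 1 of 1.08 to 1.57 (95% interval), with an adjusted p of 0.299 and an unadjusted p of 0.0105 by limma-trend, and an exact permutation p of 0.0857. Without high Pi replicate 1 the log2 difference was 0.27 (adjusted p = 0.190), and without high Pi replicate 3 the diets did not overlap (exact p = 0.0286). When libraries were weighted by their precision, Abcc2 and Slco1a6 were both called (adjusted p = 0.0436 for Abcc2 and 0.0139 for Slco1a6), where 3.76% of all genes were called and 2.11% were called lower. The rank correlations of the libraries with transcript length ran from -0.501 in high Pi replicate 3 to 0.392 in high Pi replicate 1. With this trend removed from each library, Slco1a6 alone was called (adjusted p = 0.0457, limma-trend), where 0.437% of all genes were called and 0.206% lower.

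Abcc4 (Mrp4) exports urate, cyclic nucleotides and prostaglandins and lies at chr14:118482692-118707856. Abcc4 had 16.5, 7.16, 5.17 and 6.42 FPKM in high Pi replicates 1 to 4, against 6.32, 7.53, 6.77 and 7.05 FPKM in normal Pi replicates 1 to 4. The value of high Pi replicate 1 was above every other library and the other 3 high Pi values overlapped the normal Pi range. The log2 difference of 0.19 (SE 0.247, adjusted p = 0.894, limma-trend) was -0.13 (adjusted p = 0.510) without high Pi replicate 1, so its sign rested on that library. The same library also held the highest sums of the podocyte markers (155 FPKM, against 114 to 118 FPKM in the other high Pi libraries and 116 to 128 FPKM on normal Pi), the leukocyte markers (457 FPKM, against 293 to 410 and 293 to 334 FPKM) and the collecting duct markers (424 FPKM, against 322 to 376 and 351 to 388 FPKM). Its sum of S3 proximal tubule markers was the lowest, at 762 FPKM, against 1407 to 1428 FPKM in the other high Pi libraries and 929 to 1412 FPKM on normal Pi. Their part in the transporter values of this library was not tested.

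Abcg2 (Bcrp) is a brush-border pump for urate and many drugs, at chr6:58584491-58692451. Abcg2 had 182, 152, 141 and 157 FPKM in high Pi replicates 1 to 4, against 175, 167, 163 and 167 FPKM in normal Pi replicates 1 to 4. High Pi replicate 1 was the highest library and the other 3 high Pi libraries were below every normal Pi library. The log2 difference was -0.09 (SE 0.0773, adjusted p = 0.788, limma-trend; exact p = 0.343). Without high Pi replicate 1 it was -0.16 (adjusted p = 0.169), and the exact p was 0.0286, the smallest that 3 against 4 libraries allow. Without high Pi replicate 3 it was -0.038 (exact p = 0.657), and with any other library left out the exact p was 0.343 to 0.543.

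**Figure D2:**
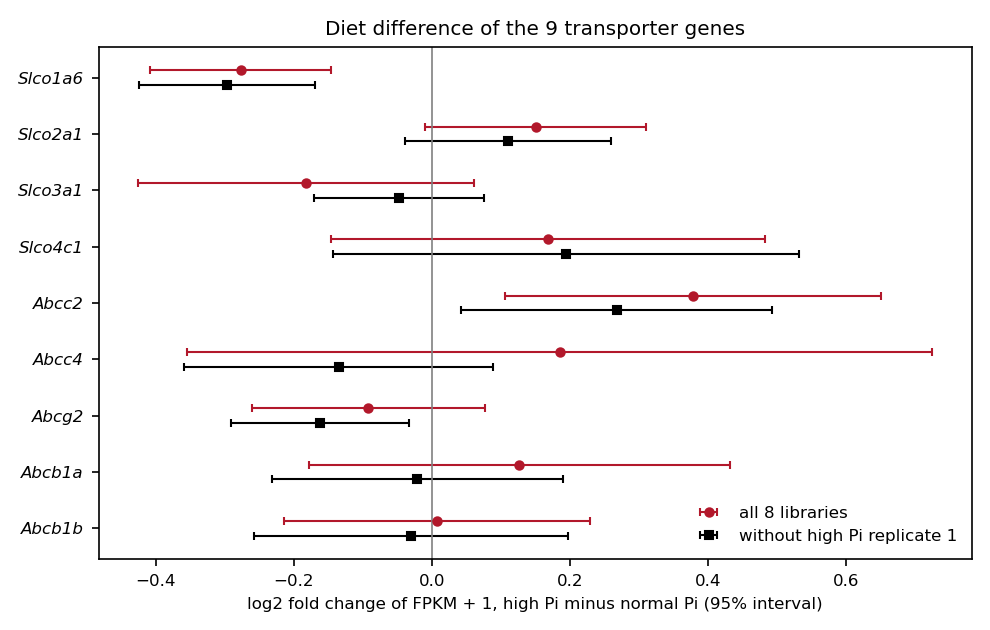
Log2 difference of FPKM + 1 (x axis, high Pi minus normal Pi) for each of the 9 transporters, with 95% intervals from limma-trend. Red circles use all 8 libraries and black squares leave out high Pi replicate 1. The interval of Slco1a6 lies below 0 in both fits, that of Abcc2 lies above 0 in both, and the estimates of Abcc4 (0.19 and -0.13), Abcb1a (0.13 and -0.02) and Abcb1b (0.01 and -0.03) have opposite signs.

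Abcb1a and Abcb1b encode the rodent pair of P-glycoproteins, efflux pumps for a wide range of hydrophobic drugs, for which humans have a single gene. They lie on chromosome 5 with 49571 bases between them (chr5:8567091-8748575 and chr5:8798147-8866314). Abcb1a had 1.92, 1.11, 0.96 and 0.76 FPKM in high Pi replicates 1 to 4, against 1.10, 0.90, 1.07 and 0.81 FPKM in normal Pi replicates 1 to 4. Replicate 1 on high Pi was the highest and the diets overlapped (log2 difference 0.13, SE 0.140, adjusted p = 0.859, limma-trend, and -0.02 without that library). Abcb1b had 1.26, 1.34, 0.95 and 0.85 FPKM in high Pi replicates 1 to 4, against 1.19, 1.05, 0.89 and 1.20 FPKM in normal Pi replicates 1 to 4. The diets overlapped here too (log2 difference 0.01, SE 0.102, adjusted p = 0.993, limma-trend). For genes near 1 FPKM the log2(FPKM + 1) scale understates a change in FPKM, and with a pseudocount of 0.1 FPKM the log2 difference of Abcb1a was 0.20. At this level and at the estimated depth, a library holds about 46 to 69 fragments of Abcb1b, with a counting error near 13.2%. For Slco3a1 the same estimate gives 1998 to 3095 fragments and 1.88%.

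Reads may be divided between the paralogs in a way that depends on the authors' mapping. The longest open reading frames of the pair, from the GENCODE M21 transcripts, shared 3370 of 3819 aligned bases (88.2%), with an identical run of 338 bases, and 15.5% of all 50-base words of the Abcb1a transcript also occurred in Abcb1b. The 120-base window in which the coding sequences were least alike is printed here, because reads from it can be told apart. Capitals mark the bases that differ between the genes (82 of 120 are identical), and positions run from the first base of the coding sequence, 2128 to 2247 for Abcb1a and 2134 to 2253 for Abcb1b.
Abcb1a: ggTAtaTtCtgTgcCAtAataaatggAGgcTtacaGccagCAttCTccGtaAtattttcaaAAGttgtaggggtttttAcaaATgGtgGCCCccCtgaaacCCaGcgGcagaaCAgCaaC
Abcb1b: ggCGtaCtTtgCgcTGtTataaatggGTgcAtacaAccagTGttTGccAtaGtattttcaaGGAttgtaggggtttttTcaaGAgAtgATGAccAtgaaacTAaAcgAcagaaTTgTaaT
Abcb1a made up 50.8 ± 6.71% of the summed FPKM of the pair on high Pi and 47.3 ± 5.89% on normal Pi (SD, n = 4 each), and lay between 40.3% and 60.4% in single libraries. The sum was 3.18, 2.45, 1.91 and 1.61 FPKM in high Pi replicates 1 to 4, against 2.29, 1.95, 1.96 and 2.01 FPKM in normal Pi replicates 1 to 4. High Pi replicates 1 and 2 were above and replicates 3 and 4 below all normal Pi libraries. For Slco1a6, 2.86% of the 50-base words were shared with Slco1a5, 1.81% with Slco1a1 and 1.74% with Slco1a4.

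The transcript values divide each gene's FPKM among its RNA models. This division of reads between models of the same gene is an uncertain estimate. They listed 25 transcripts of the 9 genes, of which 22 reached 0.1 FPKM in at least 4 libraries. Of these, 0 were called by limma-trend over 31396 transcripts, where 0.0127% were, and 5 had an unadjusted p under 0.05, where 6.68% did. The 5 were NM_023718.3 and XM_011241587.1 of Slco1a6, NM_013806.2 and XM_006526625.3 of Abcc2, and NM_011076.2 of Abcb1a. Models of the same gene divide the same reads, so these are not separate results. The smallest adjusted p was 0.387, for the curated mRNA of Slco1a6 (NM_023718.3). This Slco1a6 transcript had 40.1, 40.8, 40.7 and 39.0 FPKM in high Pi replicates 1 to 4, against 47.1, 44.1, 51.1 and 47.5 FPKM in normal Pi replicates 1 to 4. All high Pi values were again below all normal Pi values, and it held 68.5% of the gene's FPKM on high Pi and 66.6% on normal Pi.

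In this estimated division the Slco4c1 value was almost wholly assigned to a non-coding model. A predicted non-coding RNA (XR_001784188.1) held 92.2% of the Slco4c1 FPKM on high Pi and 91.2% on normal Pi. The protein-coding Slco4c1 mRNA (NM_172658.3) was at 0.39, 0.18, 0.40 and 0.11 FPKM in high Pi replicates 1 to 4, against 0.23, 0.20, 0.54 and 0.11 FPKM in normal Pi replicates 1 to 4. Its mean was 0.27 FPKM on both diets, and the gene-level FPKM of Slco4c1 given above is mostly assigned to the non-coding model. How far the coding mRNA is truly this low was not tested. Abcg2 rested on a predicted mRNA (XM_006506148.3, 98.1% on high Pi and 97.4% on normal Pi). The 2 Abcc2 mRNAs were both higher on average on high Pi, the main one (NM_013806.2) at 54.6 ± 11.3 FPKM on high Pi and 41.8 ± 2.91 FPKM on normal Pi (SD, n = 4 each). The minor Abcc2 mRNA (XM_006526625.3) had 4.53, 4.14, 2.68 and 3.74 FPKM in high Pi replicates 1 to 4, against 2.59, 2.65, 2.64 and 1.18 FPKM in normal Pi replicates 1 to 4, with no overlap (exact p = 0.0286, adjusted p = 0.682 by limma-trend). The division of Abcb1a among 3 transcripts varied from library to library. Its curated mRNA (NM_011076.2) held 46.9% to 100% of the Abcb1a FPKM on high Pi and 1.82% to 75.9% on normal Pi (adjusted p of its level 0.675, limma-trend).

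**Figure D3:**
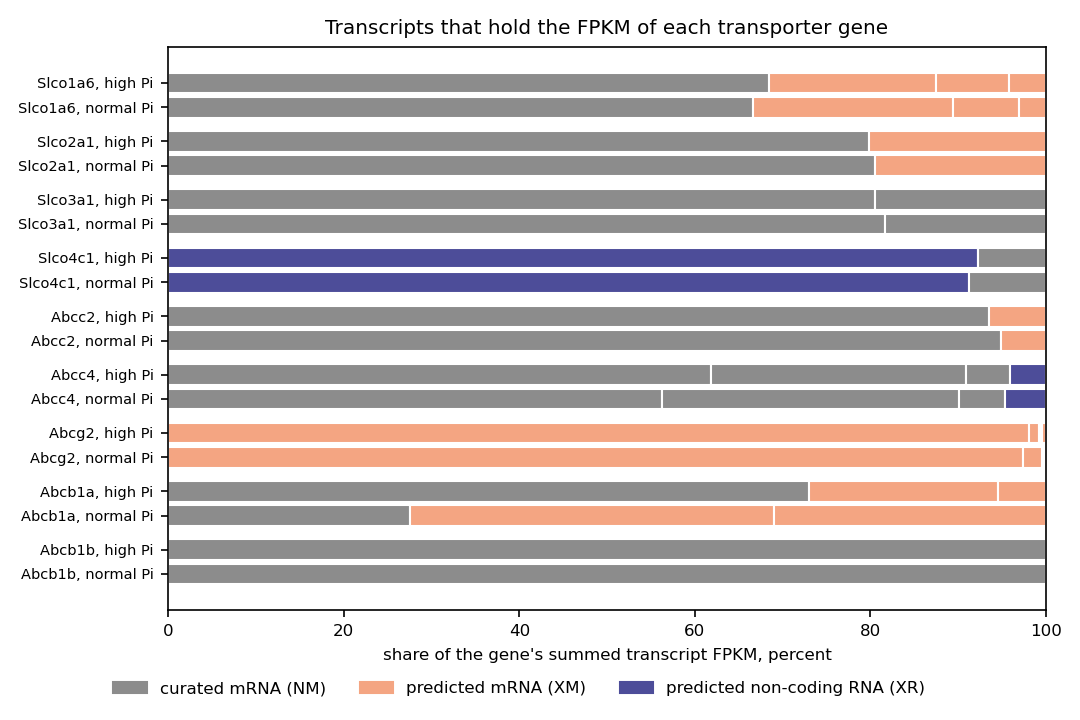
Share of each transporter gene's summed transcript FPKM (x axis, percent) held by its transcripts, from mean FPKM over the 4 libraries of each diet, with high Pi above normal Pi for each gene. Colours give the RefSeq class of the transcript and white lines separate transcripts. Slco4c1 is filled by a predicted non-coding RNA (92.2% on high Pi and 91.2% on normal Pi), while Slco3a1 and Abcb1b rest on curated mRNAs alone.

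Other genes of the same families and of the same route were counted from written lists. Of 13 other Slco genes 8 were in the files and 3 were tested, and 0 were called. Slco1a1, a steroid-conjugate carrier that lies near Slco1a6 on chromosome 6 (chr6:141907281-141946962), had 37.6, 75.0, 60.4 and 69.7 FPKM in high Pi replicates 1 to 4, against 51.2, 50.5, 38.2 and 42.4 FPKM in normal Pi replicates 1 to 4. High Pi replicate 1 was the lowest library and the other 3 were above every normal Pi library. Its log2 difference was 0.37 (adjusted p = 0.570, limma-trend), and without high Pi replicate 1 Slco1a1 rose by 0.58 (adjusted p = 0.0160), the opposite direction to Slco1a6 in the same fit. Slco1a5 was at 0 to 0.03 FPKM and Slco1a4 at 0.11 to 0.48 FPKM, both under the filter, and these 2 were chosen after their values were seen.

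Among other ABC genes, 0 of 6 Abcc, 0 of 7 Abcb, 0 of 1 Abcg and 0 of 12 Abca and Abcd genes tested were called. At an unadjusted p under 0.05 (limma-trend) there were 2, 0, 0 and 3, where 9.35% of all genes were. Abcc6, needed for the release of ATP that yields pyrophosphate, averaged 1.97 ± 0.180 FPKM on high Pi and 2.51 ± 0.331 FPKM on normal Pi (SD, n = 4 each), with all high Pi libraries below (log2 difference -0.24, adjusted p = 0.407). Abcb6, a porphyrin transporter, averaged 12.0 ± 1.15 FPKM on high Pi and 10.9 ± 0.443 FPKM on normal Pi (SD, n = 4 each; adjusted p = 0.681). Abcg1, a cholesterol exporter, averaged 1.06 ± 0.252 FPKM on high Pi and 0.85 ± 0.0876 FPKM on normal Pi (SD, n = 4 each; log2 difference 0.15, adjusted p = 0.701, and 0.069 without high Pi replicate 1). Abcd3, which imports acyl-CoAs into peroxisomes, averaged 77.0 ± 3.13 FPKM on high Pi and 65.9 ± 7.07 FPKM on normal Pi (SD, n = 4 each; adjusted p = 0.327). None of these 4 genes passed the test.

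Of 18 organic ion carriers tested that work beside these pumps, 1 was called higher and 0 lower. Slc51a encodes a subunit of the basolateral steroid and bile acid transporter. Slc51a had 178, 164, 160 and 139 FPKM in high Pi replicates 1 to 4, against 115, 116, 119 and 123 FPKM in normal Pi replicates 1 to 4. All high Pi libraries were above, and Slc51a rose by 0.43 on the log2 scale (SE 0.0752, adjusted p = 0.0409, limma-trend), the direction in which 0.178% of all genes were called. The call was lost in 10 of 15 alternative fits, with adjusted p up to 0.183, among them those without any 1 of high Pi replicates 2 and 3 and of the 4 normal Pi libraries (0.0969 to 0.154). Slc51b, which encodes the other subunit of that transporter, was chosen after its values were seen. It averaged 64.2 ± 6.62 FPKM on high Pi and 65.4 ± 7.97 FPKM on normal Pi (SD, n = 4 each). The diets overlapped for Slc51b (log2 difference -0.03, adjusted p = 0.977, limma-trend).

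Of 16 nuclear receptors and xenobiotic sensors 0 were called, and 3 had an unadjusted p under 0.05 (limma-trend), where 9.35% of all genes did. Hnf4a, a nuclear receptor that maintains the proximal tubule, averaged 209 ± 11.0 FPKM on high Pi and 236 ± 8.03 FPKM on normal Pi (SD, n = 4 each; log2 difference -0.17, adjusted p = 0.345), with all high Pi libraries below. Of 7 apical scaffold and linker genes 0 were called, and 1 had an unadjusted p under 0.05. The median log2 difference of these 7 was -0.15, and 6 were below 0. Pdzk1ip1, which encodes a small membrane partner of the scaffold PDZK1, averaged 900 ± 79.8 FPKM on high Pi and 1030 ± 68.5 FPKM on normal Pi (SD, n = 4 each; adjusted p = 0.456).

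Over these 8 lists the fit without high Pi replicate 1 called 7 genes in place of 1, where 3.44% of all genes were called. They were Slco1a1, Slc51a and Slc17a3 higher and Slc22a5, Abca13, Abcd4 and Msn lower, and the names Slc17a3, Slc22a5, Abca13, Abcd4 and Msn were chosen after their values were seen. Of 18 organic ion carriers tested in that fit, 2 were called higher and 1 lower. The other calls were 1 of 3 other Slco, 2 of 12 Abca and Abcd and 1 of 7 scaffold and linker genes. The 6 Abcc, 7 Abcb, 1 Abcg and 16 receptor and sensor genes tested had 0 calls.

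**Figure D4:**
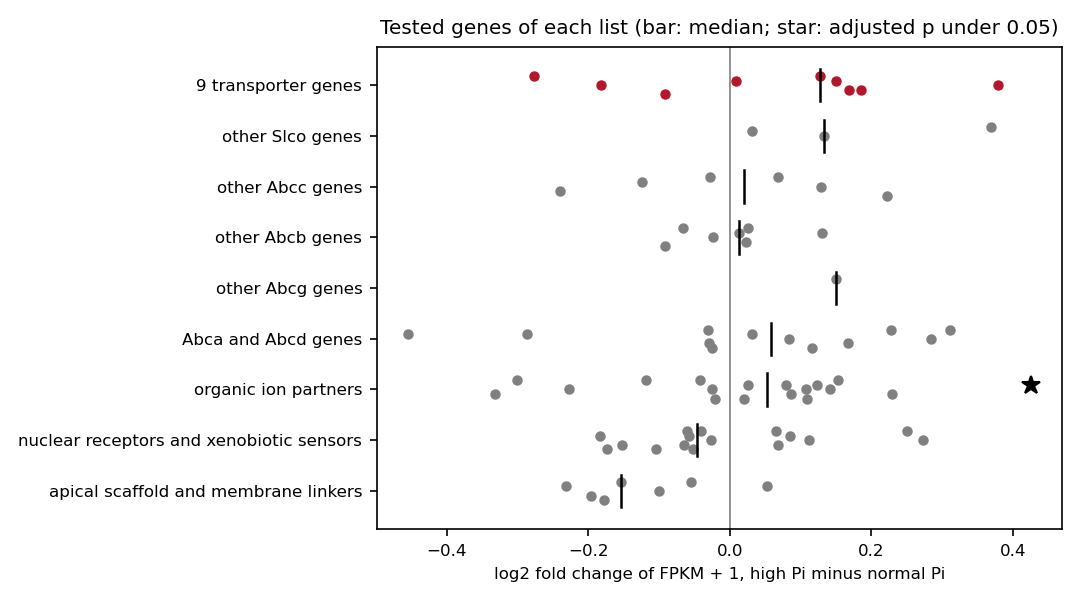
Log2 difference of FPKM + 1 (x axis, high Pi minus normal Pi) of each tested gene in the transporter set (red) and in 8 lists of related genes (grey), with a vertical bar at each median. Slc51a (star, 0.43) is the single gene with an adjusted p under 0.05, and the scaffold list has the lowest median (-0.15).

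The tested gene with the profile most like each transporter was found by the root mean square difference of scaled log2 values over the 8 libraries, among 11344 genes with a mean of at least 1 FPKM, as a description with no test. For Slco1a6 it was Rnf145 (0.135), a ubiquitin ligase of the endoplasmic reticulum, at 22.0 FPKM on high Pi and 31.5 FPKM on normal Pi. For Slco2a1 it was Selenon (0.107), for Slco3a1 Acsm1 (0.179), for Slco4c1 Rps9 (0.182) and for Abcc2 Ttc27 (0.279). For Abcc4 it was the mitotic kinase Plk1 (0.142), at 2.79 FPKM in high Pi replicate 1 and 0.92 to 1.43 FPKM in the other 7 libraries. For Abcg2 it was Cav2 (0.130), for Abcb1a Sinhcaf (0.228) and for Abcb1b Rgs2 (0.357). No transporter of the set had another member as its nearest profile, but with 11344 genes searched this was likely from the start. The distance to the nearest other member ran from 0.545 (Abcc4 and Abcb1a) to 1.35 (Slco4c1 to Abcc2).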

How the data were processed

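RNA from the kidney cortex of 4 high Pi and 4 normal Pi mice was sequenced on the BGI DNBSEQ platform. The deposited tables hold FPKM per gene and per RefSeq transcript, computed by the authors. The submitters' processing notes name GRCm38.p6, HISAT and Bowtie2, and versions, the counting step and strand handling are not given in the sources used here. No counts were used, so the study's DESeq2 test was not run and the library depth was estimated from the steps between low FPKM values. The steps were matched only in part. The mean cosine of the match was 0.495 to 0.574, where 1 means that every low value was a whole number of fragments.

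Groups were taken from the diet label. The 9 transporters and all lists were chosen with earlier results of these data known. FPKM were tested as log2(FPKM + 1) with limma-trend (limma 3.58.1, R 4.3.3) over genes at 0.5 FPKM or more in 4 or more libraries (transcripts, 0.1 FPKM), with Benjamini-Hochberg adjustment, and with exact two-sided permutation tests of mean FPKM. Fold changes on this scale understate the change of low genes. From each list, up to 4 genes past the threshold were named, or the gene with the smallest p. Alternatives were a pseudocount of 0.1, quantile or median-of-ratios scaling, no filter, a replicate block, library weights, removal of a transcript length trend and each library left out. The scripts were tested on simulated data. Gene positions and promoter windows are RefSeq's for GRCm38.p6, and transcript sequences are from GENCODE M21. The mice were separate animals, and batch was not given.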

Additional observations from a re-analysis of the deposited data

Results flagged for a closer look

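In 54 groups of 4 libraries (the named genes in each diet), 2 held a library far from the other 3 by Dixon's ratio, where chance marks about 1 in 20 groups. Avpr2, the vasopressin receptor of the collecting duct, had 5.35 FPKM in high Pi replicate 2 and 6.85 to 6.92 FPKM in the other high Pi libraries. Cdkn1c, a podocyte marker, had 11.11 FPKM in normal Pi replicate 3 and 10.61 to 10.69 FPKM in the other normal Pi libraries. No transporter was marked, although Abcc4 in high Pi replicate 1 (16.5 FPKM) came close, with a ratio of 0.824.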

How the results depend on the processing

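Slco1a6, Slco2a1, Slco3a1, Slco4c1, Abcc2 and Abcg2 kept their direction in all 15 alternatives. The number of transporters called, 0 with all libraries, was 2 with library weights (Slco1a6 and Abcc2) and 1 with the transcript length trend removed (Slco1a6), and leaving out 1 library gave 0 to 1. Log2 differences reversed for Abcc4 with library weights (-0.022) and without high Pi replicate 1 (-0.13, in a range of -0.13 to 0.37 with 1 library left out), for Abcb1a without high Pi replicate 1 (-0.021, in a range of -0.021 to 0.22), and for Abcb1b with quantile normalization (-0.014), with library weights (-0.047), and without high Pi replicate 1 (-0.030), high Pi replicate 2 (-0.047) or normal Pi replicate 3 (-0.038), in a range of -0.047 to 0.066. The cause was not tested. In the lists of related genes, 1 gene was called, against 0 with quantile normalization, median-of-ratios scaling or no filter, 8 with library weights and 0 to 7 with 1 library left out. Over all genes, 37 were called, against 8 without the filter, 466 with library weights and 4 to 423 with 1 library left out (423 without high Pi replicate 1). The exact test reached its smallest p for 2 transporters, Slco1a6 and Slco2a1, whose diets did not overlap, which held for 5.02% of all genes. With 1 library left out it did so for 1 to 3 transporters, and the share over all genes was not computed for those splits.

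With the replicate number as a block, 0 transporters, 0 list genes and 11 genes in all were called, and the adjusted p of Slco1a6 was 0.222. Same-numbered libraries did not deviate together (correlations of -0.209, -0.011, 0.061 and -0.121). Such correlations cannot show whether same-numbered mice shared a batch, and the main fit did not pair them.

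The design of 4 against 4 libraries cannot give an exact p under 0.0286, and FPKM carry no counts for a count model. The Abcb1 pair, at about 1 FPKM, rests on few fragments per library, and its log2(FPKM + 1) differences understate those in FPKM.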
